A study of Mus musculus with 2 samples.

Results

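The cells described were chosen as T and NK lymphocytes captured with mouse colonic epithelium, by a rule on 9 genes. A cell belongs if it holds at least 1 unique molecular identifier (UMI, a counted RNA molecule) of at least 2 of Cd3e, Cd3d, Cd3g, Trac, Trdc, Nkg7, Gzma, Gzmb and Xcl1. The name is that of the rule, and not every member need be a lymphocyte: the leukocyte gene Ptprc was found in 69.1% of whole-epithelium members. There were 278 such cells among the 7762 that passed the depth filters in the library of whole epithelium and 22 among 5767 in the GFP library, so 300 of 13529 in all. The whole-epithelium library came from untreated c-Kit-creERT2 mice, which carry a tamoxifen-dependent recombinase driven from the Kit locus. For the GFP library, c-Kit-creERT2;Rosa26-mTG mice were given 1 intraperitoneal tamoxifen injection (1 mg per 20 g of body weight), and its cells were sorted by fluorescence as GFP+, that is as derived from c-Kit+ cells. Mouse age, sex and number are not given in the labels. Colons were stripped of epithelium with EDTA, digested to single cells and captured in droplets with 3′ tag counting. There is 1 library per group, so no difference between libraries has a replicate check and none was tested, and all intervals given are 95% intervals that cover counting error only.

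Lymphocytes of the gut epithelium sit between the epithelial cells, above the basement membrane. Many are T cells with an alpha-beta or a gamma-delta receptor, held in place by the integrin alpha E beta 7, which binds E-cadherin, and armed with granzymes. The so-called natural cells among them often carry CD8 as an alpha-alpha homodimer together with receptors of the NK family and the adaptor FcεRIγ, and they carry little CD5, CD6 and CD28, whereas conventional T cells that settle there carry CD4 or the CD8 alpha-beta dimer. NK cells share Nkg7, granzymes and NK receptors with these T cells but do not assemble CD3 with a T cell receptor.

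The rule genes lie in a few places of the genome (build GRCm38, GENCODE annotation). Cd3g (chr9:44969572-44980431, minus strand) and Cd3d (chr9:44981786-44987339, plus strand) start 1355 bases apart and point away from each other, with Cd3e (chr9:44998740-45009627, minus strand) next to them. These 3 encode chains of CD3, the signalling complex that T cell receptors assemble with. Trdc (chr14:54142851-54148868) and Trac (chr14:54220521-54224206), the constant parts of the delta and alpha receptor chains, lie on the plus strand of the same locus with starts 77670 bases apart. Nkg7 (chr7:43437073-43438249), a granule membrane protein, the proteases Gzma (chr13:113093825-113100981) and Gzmb (chr14:56258838-56262260) and the chemokine Xcl1 (chr1:164931644-164935527) complete the rule.

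Promoters of 4 of these genes are printed because the data bear on them as pairs: Cd3d and Cd3g were detected together in most of the cells, and Gzma and Xcl1 marked cells that overlapped less. All 4 are rule genes, so the rule itself shapes these overlaps. Each runs from 250 bases before to 50 bases after the RefSeq start (GRCm38.p6), 5′ to 3′ on the gene's own strand. Capitals mark matches, on either strand, to TGTGGT (bound by Runx factors), CAGGAAG (ETS factors), AGGTGTG (T-box factors) and CAGGTG (E proteins). The last pair can overlap where CAGGTG runs on into TG.
Cd3d, chr9:44981536-44981835: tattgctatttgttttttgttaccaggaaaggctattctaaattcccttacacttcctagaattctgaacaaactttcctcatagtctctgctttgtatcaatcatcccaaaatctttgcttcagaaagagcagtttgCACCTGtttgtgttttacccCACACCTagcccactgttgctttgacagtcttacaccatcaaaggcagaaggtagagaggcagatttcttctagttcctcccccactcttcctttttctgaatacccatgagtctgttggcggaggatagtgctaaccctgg
Cd3g, chr9:44980382-44980681: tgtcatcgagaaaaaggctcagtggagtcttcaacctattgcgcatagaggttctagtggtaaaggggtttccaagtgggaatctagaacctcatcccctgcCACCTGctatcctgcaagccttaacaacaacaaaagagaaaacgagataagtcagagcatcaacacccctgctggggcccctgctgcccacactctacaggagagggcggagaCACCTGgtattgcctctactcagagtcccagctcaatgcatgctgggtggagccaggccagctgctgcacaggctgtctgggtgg
Gzma, chr13:113100932-113101231: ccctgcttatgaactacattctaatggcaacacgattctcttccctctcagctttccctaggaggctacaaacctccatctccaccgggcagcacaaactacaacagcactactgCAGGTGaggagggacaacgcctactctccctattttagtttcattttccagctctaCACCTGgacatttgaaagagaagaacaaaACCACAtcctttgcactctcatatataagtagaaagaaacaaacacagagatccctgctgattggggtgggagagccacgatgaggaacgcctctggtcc
Xcl1, chr1:164935473-164935772: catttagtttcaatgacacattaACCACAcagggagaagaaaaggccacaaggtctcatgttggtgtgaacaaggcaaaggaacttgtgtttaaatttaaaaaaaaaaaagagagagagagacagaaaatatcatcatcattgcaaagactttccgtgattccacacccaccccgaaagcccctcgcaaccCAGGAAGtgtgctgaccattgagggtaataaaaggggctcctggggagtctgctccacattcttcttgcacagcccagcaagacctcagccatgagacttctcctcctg
The E-protein letters were found 1 time in the Cd3d promoter, 2 times in Cd3g, 2 times in Gzma and 0 times in Xcl1. The Runx letters were found in Gzma and Xcl1 and in neither CD3 gene, the ETS letters in Xcl1 and the T-box letters in Cd3d. Among all 32851 promoters of the table, 20.2% hold CAGGTG, 16.8% TGTGGT, 13.3% CAGGAAG and 5.84% AGGTGTG. These matches describe letters and not binding. Promoters of 7 rule genes were in the table.

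The whole-epithelium matrix held 13967 barcodes with 164185392 UMIs and the GFP matrix 13575 barcodes with 150348319 UMIs. The matrices are recorded under each other's sample, and each was given the library whose barcode list has its length, so with the recorded assignment the values of the libraries change places (a member share of 0.381% for whole epithelium and 3.58% for GFP). Members were shallower than the other kept cells of the whole-epithelium library, with a median of 4504 UMIs (1008 to 64753) against 15233. Their median share of mitochondrial UMIs was 4.33% against 8.38% in the others. The barcode lists of the libraries share 60 sequences, of which 1 is a member of the whole-epithelium library and 0 are members of the GFP library. Without the rule's depth filter 315 barcodes of the whole-epithelium matrix meet the gene condition, 37 more than the 278 kept.

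Members were not all alike in how much epithelial RNA they carried. The summed UMIs of 19 epithelial genes (Epcam, keratins, claudins and others) were counted per 10000 UMIs of each cell, and the median was 38.8 in members (interval 32.7 to 50.2) against 223 in the other cells. Of the members, 172 members (61.9%) were below 75 per 10000, and 10 lay between 75 and 100, with 17 in the band just below and 16 from 100 to 150. The cut of 75 was chosen after the values were seen, and below it lay 0.762% of the other cells. The 172 are called epithelium-poor members and the other 106 epithelium-rich. Whether the epithelial RNA of the latter came with a second cell in the droplet or from free RNA was not tested. No doublet caller was run, and 13 of the 49 members with 10000 or more UMIs were epithelium-poor.

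The rule sits on a steep edge of this distribution. Just inside it, 55 cells held exactly 2 rule genes, with a median of 9175 UMIs and of 212 epithelial UMIs per 10000, and 14.5% of them had a UMI of Ptprc, the pan-leukocyte phosphatase CD45, which is not a rule gene. Just outside, 508 cells held exactly 1 rule gene, with a median of 13753 UMIs, 216 epithelial UMIs per 10000 and Ptprc in 5.12%. With 0 rule genes Ptprc was found in 1.39% of 6976 cells. Of 204 cells with 4 to 9 rule genes, 164 (80.4%) were epithelium-poor, against 8 of 74 (10.8%) with 2 or 3. Ptprc was detected in 68.8% of cells with 4 rule genes, 91.4% with 6 and 96.0% with 8.

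**Figure D1:**
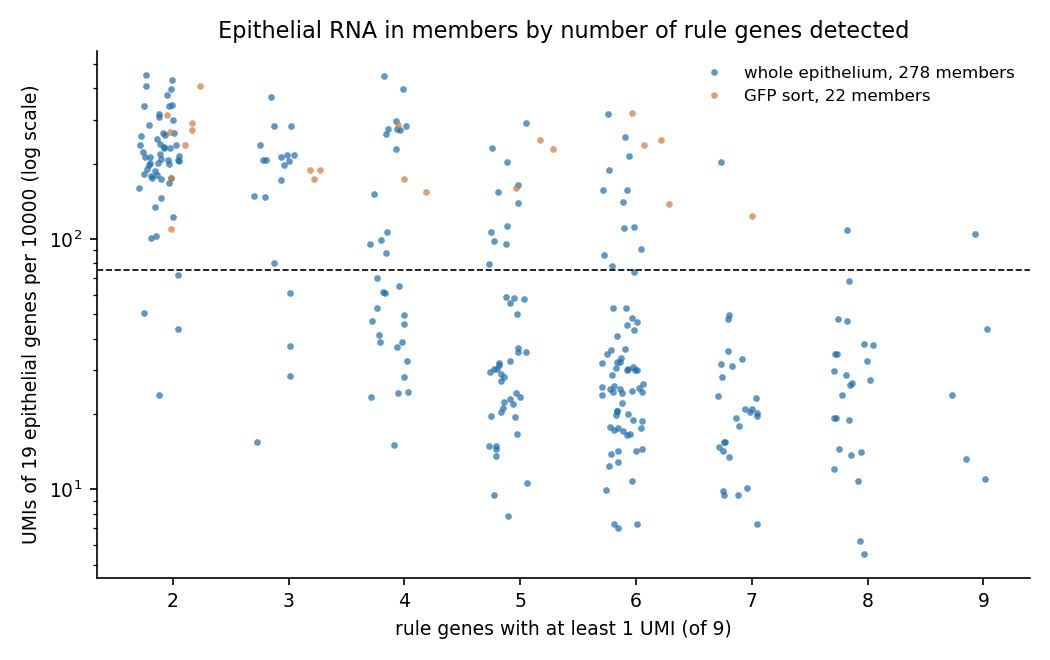
Each point is 1 member: the x axis gives how many of the 9 rule genes had at least 1 UMI, the y axis (log scale) the UMIs of 19 epithelial genes per 10000, and the dashed line the value of 75. Whole-epithelium members with 4 or more rule genes lie mostly below the line (164 of 204), those with 2 or 3 mostly above it, and all 22 GFP members lie above it.

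The CD3 genes and Nkg7 were the most widely detected of the rule genes. Cd3g had 1446 UMIs in members and was found in 79.5% of them, with a median of 5 UMIs where detected. Cd3d was found in 70.5% (786 UMIs) and Cd3e in 66.5% (580 UMIs). Nkg7 was found in 75.9% (1302 UMIs) and Xcl1, which draws cross-presenting dendritic cells, in 59.4% (1511 UMIs). Trac reached 56.8% and Trdc 21.2%. Gzma was sparse but abundant where present: 30.6% of members held 3468 UMIs, up to 434 in a single cell. Gzmb reached 33.8% with 1149 UMIs. These shares are set by the rule and are given as a description. In all, members held 10976 UMIs of the rule genes and the other kept cells 542, so 95.3% lay in members, and detection in the other, deeper cells ran from 0.227% for Trdc to 2.11% for Gzma. The other cells hold at most 1 rule gene by the rule itself.

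Within epithelium-poor members the CD3 genes went together. Of 168 cells with Cd3d or Cd3g, 151 had both. Gzmb was found in 41 of the 45 cells with Gzma. Xcl1 was found in 24 of the 45 cells with Gzma (53.3%, interval 37.9 to 68.3) and in 80.3% of the 127 without it (72.3 to 86.8). All 172 held at least 1 UMI of a CD3 gene, Trac, Trdc, Trbc1 or Trbc2, which the rule largely fixes. The beta chain genes, which the rule did not use, were found in 90.1% (Trbc2) and 59.3% (Trbc1) of the 172. Of 9 NK cell genes counted, 8 were at least 4-fold higher in members than in the other cells, against 4.68% of 13112 genes outside the rule. The other cells held 0.379 UMIs per 10000 of the list, which summed to 31.3 in epithelium-poor members. Of its 2620 UMIs there, 1005 were of Fcer1g, found in 71.5% of the 172, and 529 of Klrd1, found in 77.3%, both of which T cells of the epithelium can also express. Other genes of the list were rare: Ncr1, the receptor NKp46, was found in 5 of the 172 (2.91%), Eomes in 1 and Ncam1 in 0. The cells are called members below, without a division into T and NK cells. Of all 278 members, 12 held none of the T cell chains, and all 12 were epithelium-rich.

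Genes that the rule did not use described the same cells. Among 13112 genes outside the rule with at least 50 UMIs over the kept cells, 613 (4.68%) had at least a 4-fold higher UMI share in members than in the other cells, and 90 (0.686%) at least a 4-fold lower share. Against that 4.68%, 22 of the 23 general leukocyte genes counted and 13 of 14 T cell receptor and signalling genes were at least 4-fold higher, with median log2 ratios of 7.99 and 8.83 against −0.02 over all genes. The cells compared were chosen by lymphocyte genes, so these counts describe the members and test nothing. In epithelium-poor members alone the counts were 1616 higher and 1471 lower genes.

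The leukocyte genes were found in nearly all epithelium-poor members. Ptprc had 365 CPM (UMIs per 1000000 of the summed UMIs of the cells) in members (756 UMIs) and 1.52 in the other cells, a log2 ratio of 7.91 (7.69 to 8.14), and was found in 90.7% of epithelium-poor members, 34.0% of epithelium-rich members and 1.64% of the other cells. Coro1a, an actin regulator of leukocytes, was found in 93.0% of epithelium-poor members and Cd52, a small surface glycoprotein of lymphocytes, in 94.2%. Rgs1, a brake on chemokine receptor signalling, was found in 90.7%. At an equal depth of 1000 UMIs per cell Ptprc was detected in 39.9% of all members and 0.414% of the other cells.

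**Figure D2:**
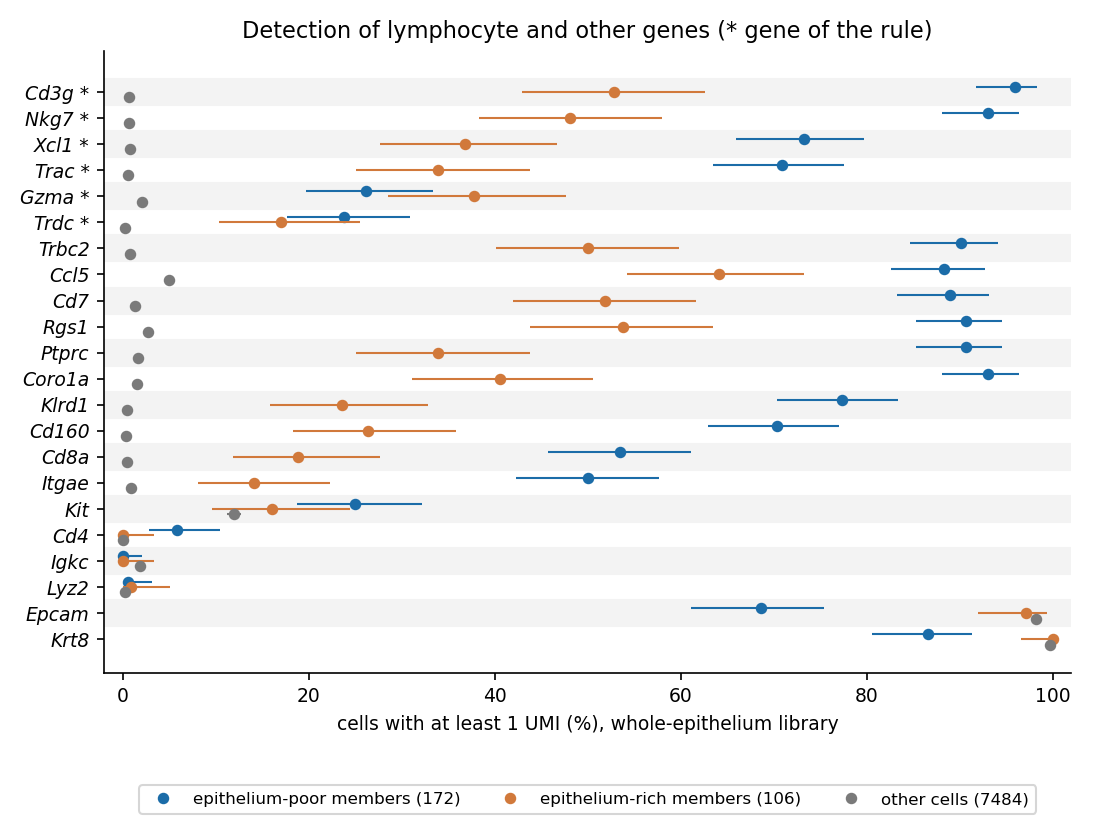
The x axis is the percentage of cells of the whole-epithelium library with at least 1 UMI of each gene, for epithelium-poor members (172), epithelium-rich members (106) and the other cells (7484), with exact binomial intervals. Ptprc stands at 90.7% and Trbc2 at 90.1% in epithelium-poor members, Cd4 and Kit are lower, and Epcam and Krt8 are near 100% in the other cells.

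The 25 genes outside the rule with the highest ratios, each with at least 50 UMIs in members, had log2 ratios of 9.71 to 11.28. T cell receptor genes among them, 5 of the 25, were Tcrg-C4 (250 UMIs in members against 7 in the others), Tcrg-C1 (256 against 10), Tcrg-C2 (343 against 17), Trbc2 (1384 against 66) and the variable gene Trgv2 (83 against 6). The Tcrg constant genes are near copies of each other, as are Trbc1 and Trbc2, so reads between them may be split uncertainly. NK-family receptors, 4 of the 25, were Klra1 (76 against 2), Klra5 (113 against 6), Klra7 (160 against 9) and Klrd1 (587 against 46), where the Klra genes are again close copies. Cd160, a receptor for HVEM on intraepithelial lymphocytes, had 546 UMIs against 27. Cd7, a T and NK surface glycoprotein, had 1824 against 140. Tbx21, which encodes T-bet, had 70 against 3. Ikzf3 (Aiolos) had 144 against 10, and Dtx1, a Notch pathway ligase, 103 against 5. The immune checkpoint gene Ctla4 had 77 against 4 and the costimulatory receptor Tnfrsf9 (4-1BB) 55 against 4. Gimap7, a lymphocyte GTPase, had 294 against 14, Cst7, a cystatin of cytotoxic cells, 114 against 5, and Cd200r4 82 against 3. Grap, an adaptor of receptor signalling, had 65 against 2. Emid1, Klk8, Gm20069 and Gm19585 had between 50 and 110 UMIs in members and at most 7 in the others.

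Ccl5, a chemokine of cytotoxic lymphocytes, was the most abundant of these 25. It had 8118 UMIs in members and 476 in the other cells, a log2 ratio of 10.13 (9.99 to 10.26). It was detected in 88.4% of epithelium-poor members, with a median of 26.5 UMIs where present, and in 4.97% of the other cells.

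Among genes with at least 500 UMIs in the other cells, the 10 with the lowest ratios included 4 haemoglobin genes. Hba-a1 had 1 UMI in members and 3224 in the others, Hbb-bs 3 and 7448, and Hba-a2 0 and 2395, at least 12.2-fold lower at a floor of 3 UMIs. Sst, the hormone of delta cells, had 1 and 2333. Dcn, a stromal proteoglycan, had 1 and 1106, the channel Best2 1 and 1188 and the keratin Krt36 1 and 763. Hbb-bt, Mpv17l and Cabcoco1 made up the rest with 1 UMI each. The haemoglobin genes were found in no more than 2.35% of the other cells. Sst was found in 0.588% and Dcn in 0.762% of the other cells, against 0.360% of members for each, so their UMIs lay in few cells. Best2, Krt36, Cabcoco1 and Mpv17l were found in 3.62% to 10.4% of the other cells. The 1 to 3 UMIs behind each value leave wide intervals, as for Sst with a log2 ratio of −5.15 (−10.46 to −2.67).

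Markers of other blood and tissue cells were counted in the same way. Of 15 macrophage and dendritic genes 10 had 0 UMIs, among them Csf1r, C1qa and Cx3cr1, and the list summed to 0.215 UMIs per 10000 in epithelium-poor members and 0.415 in the other cells. Of 11 mast cell and basophil genes 6 were at 0, including Mcpt4 and Fcer1a. The list summed to 1.00 UMIs per 10000 in epithelium-poor members and 0.178 in the other cells, and of its 84 UMIs in epithelium-poor members 76 were of Kit, with 2 each of Cpa3, Mcpt1, Mcpt2 and Hdc. Among plasma cell genes Igkc and Jchain were at 0, and among B cell genes Cd79a, Ms4a1 and Pax5 were at 0. Stromal genes summed to 0 UMIs in epithelium-poor members. An exception stood among the antibody genes: Ighm, the mu heavy chain, had 154 UMIs in members and 42 in the others and was found in 47.1% of epithelium-poor members (39.5 to 54.8), with Igha in 12.2% and Cd79b in 8.72%.

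Genes of retention in the epithelium were a broad group: 15 of 17 residence and adhesion genes counted were at least 4-fold higher, against 4.68% of all genes, with a median log2 ratio of 8.19. Itgae, the alpha E chain that pairs with beta 7, was found in 50.0% of epithelium-poor members (42.3 to 57.7) and 0.855% of the other cells, and its partner Itgb7 in 50.6%. Cd69, which blocks exit by pulling down the S1P receptor, was found in 51.2%, and Cxcr6 in 27.3%. Genes of recirculation were found in fewer of these cells: S1pr1 in 8.14% and Ccr7 in 0.581%. Klf2, a factor that maintains recirculation genes, was found in 37.8% of epithelium-poor members, 67.0% of epithelium-rich members and 56.4% of the other cells. The median depths of these groups were 4146.5, 7597 and 15233 UMIs, so the Klf2 shares do not show a lower level in epithelium-poor members. By summed UMIs, Klf2 had 514 CPM in the 127 epithelium-poor members without Gzma and 85.3 CPM in the 45 with it. In the other cells all 21 residence and adhesion genes, Klf2 among them, summed to 2.96 UMIs per 10000.

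Effector genes were a mix of widely and rarely detected ones. Of 7 cytotoxic genes counted outside the rule 5 were at least 4-fold higher, against 4.68% of all genes. Ctsw, a cathepsin of cytotoxic cells, was found in 86.6% of epithelium-poor members and Srgn, the granule proteoglycan, in 91.3%. Prf1, the pore former perforin, was found in 11.6% with 27 UMIs, Fasl in 19.2%, Gzmc in 4.65% and Gzmk in 6.98%. Gzmd, Gzme, Gzmf, Gzmg and Gzmm had 0 UMIs in members. Among cytokines Ifng was found in 12.8% (76 UMIs) of epithelium-poor members and Ltb, a lymphotoxin chain, in 58.1%. Il4, Il5, Il13, Il17a, Il17f and Il22 had 0 UMIs in the 278 members. Areg, an epithelial growth factor gene, was found in 14.5% of epithelium-poor members against 61.5% of the other cells at their larger depth.

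Of 8 cytokine receptor genes counted 4 were at least 4-fold higher, against 4.68% of all genes: Il2rb, Il2rg, Il7r and Il21r. Il2rb and Il2rg, chains of the IL-2 and IL-15 receptor, were found in 57.6% and 66.3% of epithelium-poor members, against 0.361% and 0.307% of the other cells. Il21r was found in 37.8% and Il7r in 14.5%. Among 19 transcription factor genes counted 12 were at least 4-fold higher, against 4.68% of all genes. Runx3, which favours the CD8 lineage, was found in 71.5% of epithelium-poor members, Ets1 in 75.6%, Tbx21 in 25% and Tcf7, a factor of less differentiated T cells, in 32.6%. Ikzf2 (Helios) was found in 70.9%, although it was present in 18.9% of the other cells too. Foxp3, which defines regulatory T cells, was found in 0 of 172, which allows up to 1.74% of cells with a detected transcript. Over all members none of the 9 regulatory T cell genes, Foxp3 among them, was at 0. Zfp683 (Hobit) was at 0 in all members.

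Some lists did not stand apart. Of 18 cell cycle genes 0 were at least 4-fold higher or lower, against 4.68% and 0.686% of all genes, with a median log2 ratio of −0.16. Mki67 was found in 8.14% of epithelium-poor members and 29.6% of the other cells at their larger depth. Of 20 genes of the response to tissue dissociation 0 passed either fold, and the list summed to 120 UMIs per 10000 in epithelium-poor members and 136 in the other cells. Of 15 interferon response genes 0 passed, with a median log2 ratio of 0.21 that was −0.67 in epithelium-poor members.

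Members split by receptor chain. Trac without Trdc was found in 130 of 278 (46.8%, 40.8 to 52.8), Trdc without Trac in 31 (11.2%, 7.70 to 15.5), both in 28 and neither in 89. The last group was the richest in epithelial RNA, with a median of 174 epithelial UMIs per 10000 against 29.6 for the Trac group. Among the 172 epithelium-poor members the numbers were 100, 19, 22 and 31. At a depth of 1000 UMIs per cell 179 of the 278 showed neither gene, so a cell without either gene may have one that was not sampled. A transcript of a receptor gene is not a receptor at the surface, and what the cells with both carry was not tested.

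The gamma chain gene Tcrg-C1 followed Trdc. Among epithelium-poor members it was found in 16 of 19 cells with Trdc alone (84.2%, 60.4 to 96.6), 18 of 22 with both (81.8%), 28 of 100 with Trac alone (28.0%, 19.5 to 37.9) and 4 of 31 with neither. It had 59 UMIs in the 19 Trdc cells and 53 in the 100 Trac cells, a log2 ratio of UMI shares of 3.02 (2.46 to 3.58). Tcrg-C2 and Tcrg-C4 differed less: they were found in 73.7% and 57.9% of the Trdc group and in 65.0% and 53.0% of the Trac group. Trbc2 was found in 84.2% of the Trdc group at 783 CPM and in 96.0% of the Trac group at 1623. Trbc2 was thus common in both groups.

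**Figure D3:**
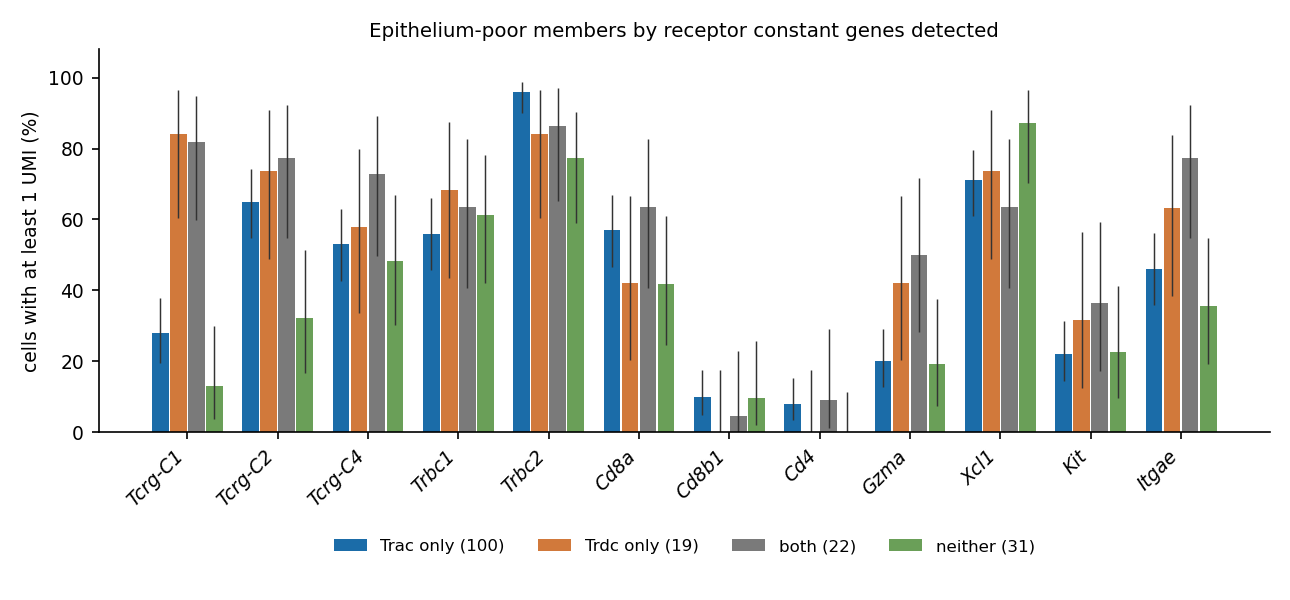
Bars give the percentage of epithelium-poor members with at least 1 UMI of each gene, split by detection of Trac and Trdc (100, 19, 22 and 31 cells), and lines are exact binomial intervals. Tcrg-C1 is above 80% in both groups with Trdc and at 28.0% with Trac alone, while Trbc2 is high in every group.

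The wider comparison of Trdc with Trac cells was thin. Over all members 190 of 4988 genes with at least 30 UMIs (3.81%) had at least a 2-fold higher share in the 31 Trdc cells and 374 (7.5%) at least a 2-fold lower share. Several of the leading genes were epithelial and came from single cells: Pyy, an enteroendocrine hormone, had 146 UMIs in the Trdc cells of which 139 lay in 1 cell, and Gcg 31 of which 28 lay in 1 cell. Guca2a, a colonocyte peptide, had 704 UMIs of which 432 lay in 1 cell. On the lower side Chga had 1 UMI against 110, of which 97 were in 1 Trac cell. With epithelium-poor members alone 100 of 2723 genes (3.67%) were at least 2-fold higher and 289 (10.6%) lower, led by Tcrg-C1 on the higher side. Among them Fgl2, a suppressor molecule of T cells, had 25 UMIs in 8 Trdc cells against 52 in 26 Trac cells, and Satb1, a chromatin organiser of thymocytes, had 1 UMI against 47, with a log2 ratio of −2.69 (−8.03 to −0.15). Muc2 was on the higher list through 1 Trdc cell with 85 of its 124 UMIs. Among epithelium-poor members the 19 Trdc cells held 71510 UMIs in all and the 100 Trac cells 519366. A gene near the minimum of 30 UMIs thus has few in the Trdc cells, where sampling alone can carry it past 2-fold. The larger number of lower genes is therefore not a measured difference between the groups.

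Coreceptor genes divided the epithelium-poor members into unequal groups. Cd8a without Cd8b1 was found in 78 of 172 cells (45.3%, 37.8 to 53.1), both in 14 (8.14%), Cd4 in 10 (5.81%, 2.82 to 10.4) and none of the 3 genes in 71 (41.3%). Of the Cd4 cells 1 also held Cd8a and is counted in both groups. Cd8b1 without Cd8a was found in 0. Over all 278 members Cd8a was found in 40.3% (34.5 to 46.3), Cd4 in 3.60% and Cd8b1 in 6.12%. Cd4 had 10 UMIs in all, 1 per cell, and was not detected at 1000 UMIs per cell, so the Cd4 group is the part of such cells that this depth shows.

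Genes of natural and of conventional T cells differed between these groups. Fcer1g, which encodes the adaptor FcεRIγ, was found in 82.1% of cells with Cd8a alone (71.7 to 89.8), 80.3% of those with none (69.1 to 88.8), 2 of 14 with Cd8a and Cd8b1 (14.3%, 1.78 to 42.8) and 1 of 10 with Cd4. That 1 Cd4 cell was the cell that also held Cd8a. Tyrobp, the related adaptor DAP12, was found in 47.4%, 36.6%, 7.14% and 0%. Klra7 was found in 12.8% and 39.4% of the first pair of groups and in 0 of the cells with Cd8b1 or Cd4. The median depths of the 4 groups were 4007, 4037, 4756 and 5526 UMIs in the order Cd8a alone, none, Cd8a with Cd8b1 and Cd4. Thinned to 1000 UMIs per cell, Fcer1g was found in 53.8%, 46.5%, 14.3% and 0% of them in that order.

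Cd6, a costimulatory scavenger receptor, went the other way, with 7 of 14 cells (50.0%, 23.0 to 77.0) with Cd8b1, 7 of 10 with Cd4 (70.0%, 34.8 to 93.3), 4 of 78 with Cd8a alone (5.13%) and 0 of 71 with none. Cd5 was found in 5 of 10 Cd4 cells and in 2.56% of the Cd8a cells. Thy1 was found in 71.4% of the Cd8b1 group, 60.0% of the Cd4 group and 26.9% of the Cd8a group. Maf, a factor of helper T cells, was found in 7 of 10 Cd4 cells and 0 of 14 Cd8b1 cells, and Icos in 5 of 10 and 4 of 14. Itgae was found in 67.9% of the Cd8a group, 64.3% of the Cd8b1 group, 20.0% of the Cd4 group and 32.4% of cells with none. Gzmb was found in 8 of 10 Cd4 cells (80.0%, 44.4 to 97.5) and 42.3% of the Cd8a group. The groups were formed on these cells' own counts, so the differences are descriptions with no test.

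**Figure D4:**
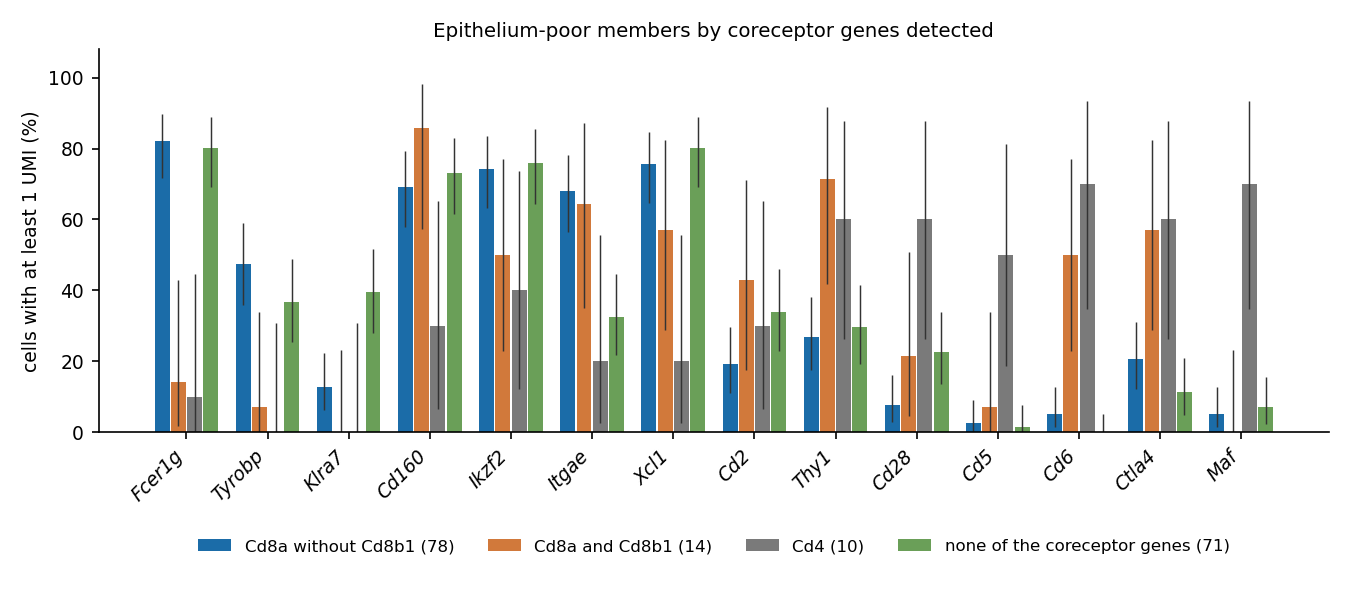
Bars give the percentage of epithelium-poor members with at least 1 UMI of each gene, split by the coreceptor genes detected (78, 14, 10 and 71 cells, 1 of them in both the Cd8a and the Cd4 group), and lines are exact binomial intervals. Fcer1g and Tyrobp are high with Cd8a alone or with no coreceptor gene, Klra7 is highest with no coreceptor gene, and Thy1 and Cd6 are high with Cd8b1 or Cd4.

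Gzma split the epithelium-poor members sharply. It was found in 45 of 172 (26.2%), and 35 of those held 10 or more UMIs, with a highest of 434 and the 10 highest cells holding 60.4% of all 3297 UMIs. Among 3689 genes with at least 30 UMIs in these cells, 112 (3.04%) had at least a 2-fold higher share with Gzma and 177 (4.8%) at least a 2-fold lower share. The median depths were close, at 3932 UMIs with Gzma and 4187 without. The chemokine genes were on the higher side: Ccl5 reached 19820 CPM against 4719, a log2 ratio of 2.07 (2.00 to 2.14), Ccl4 a log2 ratio of 2.55 (2.11 to 3.00) in 26 of 45 cells against 15 of 127, and Ccl3 1.70 (0.83 to 2.59). Of 8 cytokine and chemokine genes counted 4 were at least 2-fold higher, against 3.04% of all genes.

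Several other genes higher with Gzma were detected in a larger share of the cells with it. Fgl2 was found in 34 of 45 cells against 25 of 127, with a log2 ratio of 2.41 (1.89 to 2.95). Actn2, a muscle-type actinin, was found in 22 of 45 against 19 of 127, and Tesc, a calcium-binding protein, in 20 of 45 against 12 of 127. Cd8b1 had a log2 ratio of 1.83 (0.85 to 2.84) from 7 cells in each group, and Itgae was found in 75.6% against 40.9%. The pore-forming Gsdmd was found in 12 of 45 against 13 of 127 and the prostaglandin receptor Ptger4 in 19 of 45 against 21 of 127. Cell cycle genes were higher too, with 4 of 9 counted at least 2-fold, against 3.04% of all genes. Yet they rested on few cells: Top2a had 38 UMIs with Gzma in 7 cells, 18 of them in 1, and Pclaf 30 in 6 cells, 17 of them in 1. Hist1h2ae, the gene with the highest ratio, had 49 UMIs with Gzma in 8 cells, 20 of them in 1.

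Tcf7, Satb1 and Klf2 were lower with Gzma. Tcf7 was found in 2 of 45 cells against 54 of 127, with a log2 ratio of −3.40 (−5.70 to −1.80), and Satb1 in 2 against 31. Klf2 had a log2 ratio of −2.59 (−3.34 to −1.92). Ly6c2, a marker of some memory CD8 cells, had 0 UMIs with Gzma and 64 without, at least 7.75-fold lower at a floor of 3 UMIs. Chga was also on this list, but 97 of its 99 UMIs lay in 1 cell. Ighm was found in 8 of 45 cells with Gzma against 73 of 127 without. Trdc was found in 19 of the 45 (42.2%) and in 22 of the 127 (17.3%), and Kit in 13.3% and 29.1%.

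**Figure D5:**
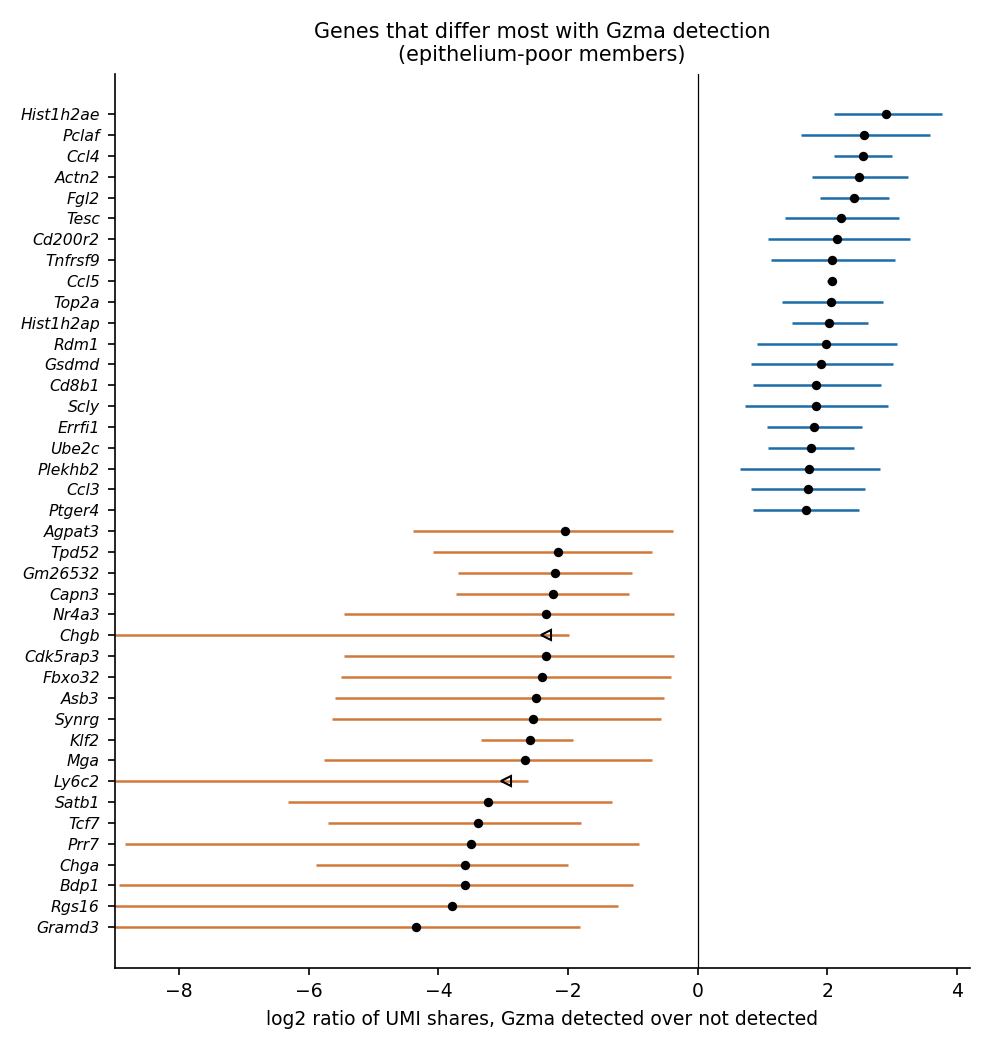
Points are log2 ratios of UMI shares between epithelium-poor members with Gzma (45 cells) and without it (127), for the 20 highest and 20 lowest genes with at least 30 UMIs, and lines are exact 95% counting intervals, ended at −9. Open triangles are genes with 0 UMIs in the Gzma cells, drawn at the floor of 3 UMIs. Ccl4, Fgl2 and Ccl5 have the narrowest intervals on the higher side and Klf2 on the lower side.

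Kit, the gene that drives the recombinase in these mice, was itself found in members. It was detected in 43 of 172 epithelium-poor members (25%, 18.7 to 32.2) at 90.9 CPM, and in 12% of the other cells at 14.7. At 1000 UMIs per cell it was found in 5.04% of all members and 2.04% of the other cells. Most of these cells held a single molecule: 29 of the 43 had 1 UMI, and the highest had 9. Of the other 10 genes of the mast cell and basophil list, Cpa3, Mcpt1, Mcpt2 and Hdc had 2 UMIs each in epithelium-poor members and the other 6 had 0. Members with Kit held Klra7 in 41.9% against 15.5% of those without, Xcl1 in 83.7% against 69.8% and Fcer1g in 86.0% against 66.7%. Their depth was larger, with a median of 5139 UMIs against 3924, and thinned to 1000 UMIs Klra7 was found in 18.6% and 7.75%, Xcl1 in 65.1% and 42.6% and Fcer1g in 55.8% and 41.1%. Cd8b1, Cd4 and Icos were found in 0 of the 43, which allows up to 6.98%, and in 14, 10 and 19 of the other 129.

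In the library sorted for GFP the members were few and different. They were 22 of 5767 kept cells (0.381%, 0.239 to 0.577) against 3.58% (3.18 to 4.02) of the whole-epithelium library, a ratio of 9.39, and at 1000 UMIs per cell 0.208% against 2.40%. The sort, the genotype and the tamoxifen differ between the libraries together with the label, and the matrices were assigned by their number of barcodes, so their parts cannot be told apart. Cells with 4 or more rule genes were 0.191% against 2.63%. Epithelium-poor members were 0 of 5767, which allows a share of up to 0.0520% at 3 cells, against 2.22%. The lowest GFP member stood at 109 epithelial UMIs per 10000, and GFP members with 4 or more rule genes had a median of 228. The 0 is thus a count under the cut of 75, chosen after the values were seen, and not a share of lymphocytes.

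The GFP members had a median of 2176 UMIs and 233 epithelial UMIs per 10000, close to the 250 of the other GFP cells and above the 38.8 of whole-epithelium members. All 22 held Retnlb, a goblet cell product, at 6224 CPM, as did 99.9% of the other GFP cells at 8542, whereas whole-epithelium members had 164. Lymphocyte genes outside the rule were found in them. Ptprc was found in 15 of 22 (68.2%, 45.1 to 86.1) against 1.25% of the other GFP cells, Ccl5 in 17 and Cd7 in 10. The rule gene Cd3e was found in 17. Cd8a was found in 15 (68.2%) and Cd8b1 in 6 (27.3%, 10.7 to 50.2), the latter against 6.12% of whole-epithelium members. At 1000 UMIs per cell Cd8b1 was seen in 0 of the 22. Cd4 was found in 0, Itgae in 2, Xcl1 in 3 and Kit in 4. With 1 library each, whether the larger Cd8b1 share belongs to the sort was not tested.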

How the data were processed

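Single cells of mouse colonic epithelium were counted in 1 whole-epithelium and 1 GFP library. The deposited files give raw UMI counts for every gene in each barcode, and the submitters' processing notes name Cell Ranger 2.1.1 and mm10. The matrix headers name software version 3.1.0. The matrix and barcode files are recorded under opposite samples, so each matrix was paired with the barcode list of its own length and took that list's library. Cells with at least 1000 UMIs, 500 genes and at most 25% mitochondrial UMIs were kept. Doublets were not called. Members and gene lists were chosen with earlier results of these data known. Shares have exact Clopper-Pearson intervals at 95%. Ratios of UMI shares have exact conditional binomial intervals, which treat UMIs as independent although those of 1 cell are not. A share of 0 is limited at 3 cells. Thinning drew 1000 UMIs per cell. Genes named are the 25 highest ratios (at least 50 UMIs in members) and 10 lowest (at least 500 UMIs in the others), the 12 highest and lowest within the receptor split, 20 for Gzma and 15 for Kit, members of the lists, and examples chosen after their values were seen. In these rankings a count of 0 was set to a floor of 3 UMIs. Genes with 0 UMIs can therefore rank behind genes with 1 UMI or be missing among the lowest. The Gzma, Kit and coreceptor groups and the epithelial limit of 75 were also chosen after the values were seen. Python 3.11.15, numpy 2.4.6, scipy 1.17.1 and pandas 2.3.3 were used, and the ratio code was tested on simulated data. Alternatives covered the rule, the filters, the depth and the weights.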

Additional observations from a re-analysis of the deposited data

How the results depend on the processing

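No paired analysis was possible because each group is 1 library. Of 107 recomputed values, 56 kept within their interval or within 1.5 times the main count and 51 did not, and the causes were not tested. The member share of the whole-epithelium library (3.58%) was 2.87% with at least 3 rule genes, 2.47% with Ptprc required, 4.41% at 10% or less mitochondrial UMIs, 2.95% at 10000 UMIs or fewer and 2.40% thinned to 1000 UMIs. With each matrix given the library recorded for it, the shares changed places, at 0.381% for whole epithelium and 3.58% for GFP. The GFP share was 0.208% thinned. Over the same order of settings (3 rule genes, Ptprc, mitochondrial, 10000 UMIs, thinned), genes at least 4-fold higher (613) numbered 1003, 1034, a count within 1.5 times, 1275 and 296, and genes lower (90) 296, 285, 211, 408 and 723. A minimum of 10 UMIs gave 2602 higher genes, and equal weight per cell 670 lower. Trac without Trdc (46.8%) was 53.4%, 55.2%, 54.4% and 34.4% with 3 rule genes, Ptprc, the mitochondrial limit and thinning. Cd8a (40.3%) was 48.9%, 49.5% and 32.8% with 3 rule genes, Ptprc and thinning, and Cd4 (3.60%) was 0% thinned. Ptprc (69.1%) was 82.5%, 81.6% and 53.8% with 3 rule genes, the mitochondrial limit and thinning. Epithelial UMIs per 10000 (38.8) were 30.8, 28.4, 30.1 and 30 with 3 rule genes, Ptprc, the mitochondrial limit and thinning. For Trdc against Trac, the higher genes (190) numbered 6 thinned, 65 with the minimum doubled, 630 with a minimum of 10 and 384 with equal weight, and the lower genes (374) 14, 109, 1073 and 611, with 236 at 10000 UMIs or fewer. In epithelium-poor members only, chosen after seeing the data, the shares were 2.22% and 0% of kept cells, the genes 1616 higher and 1471 lower, Trac without Trdc 58.1%, Cd8a 53.5%, Ptprc 90.7%, and 100 genes higher with Trdc. Leaving out shared barcodes, also added after seeing the data, or a minimum of 500 UMIs and 300 genes moved none of these.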
